A study of Sus scrofa with 4 samples.

Results

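Polycomb repressive complex 2 (PRC2) places methyl groups on lysine 27 of histone H3, a mark of silenced genes. Its 10 genes described here were measured by RNA sequencing in porcine (Sus scrofa) embryos at the 4-cell stage. EZH2 or its less active paralog EZH1 carries the catalytic domain, SUZ12 is the scaffold, and EED reads the existing mark and stimulates the enzyme. RBBP4 and RBBP7 are histone-binding proteins that PRC2 shares with other complexes. These 6 are taken as the core. The 4 accessory genes fall into 2 alternative forms of the complex. MTF2 and PHF19 are Polycomb-like proteins of the form called PRC2.1, which bind CpG-rich DNA. AEBP2 and JARID2 belong to the form called PRC2.2, which binds chromatin carrying the ubiquitin mark of PRC1. In the mouse, H3K27 methylation laid down in the oocyte is passed to the embryo and silences a set of imprinted genes there.

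The members were all rows of the deposited table whose gene name was 1 of these 10 symbols. They took up 23 of its 35395 transcript rows and 10 of its 25560 genes, and 17 of the 23 rows had a value above 0. Levels are FPKM (fragments scaled to transcript length and library size), summed over the transcript rows of a gene. RefSeq lists 50 transcripts for these genes, so a level here covers only the transcripts with a row in the table. Near-identical copies elsewhere in the genome can also share reads with a gene, which was not measured.

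There were 2 libraries labelled TFAP2C knockdown and 2 libraries labelled control. The protocol for all of them names injection of small interfering RNA into the embryo's cytoplasm. TFAP2C (AP-2 gamma) is a transcription factor of the trophectoderm and germ line, and the series asks whether it affects the epigenetic regulators of the early embryo. How many embryos went into a library, whether the libraries of a group were separate pools, and what the controls were injected with are not in the labels. The spread behind each p-value is that between 4 libraries, drawn by the fit toward the spread of other genes of similar level. It may be technical. In such bulk libraries fewer cells and less RNA per cell cannot be told apart.

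The targeted gene did not check the labels. TFAP2C stood at 0.448 and 3.11 FPKM under labelled knockdowns 1 and 2, against 14.7 and 7.78 FPKM under labelled controls 1 and 2. Coverage divided by FPKM was 1 constant per library for all other genes, 6.07 and 8.83 in labelled knockdowns 1 and 2 and 6.69 and 7.03 in labelled controls 1 and 2. The TFAP2C row instead held 6.69 and 7.03 under the labelled knockdowns and 6.07 and 8.83 under the labelled controls, the constants of the opposite group. Its difference of -2.27 as deposited (log2(FPKM + 1) scale, SE 0.57) did not pass the threshold (limma, Benjamini-Hochberg adjusted p = 0.0745). The libraries are therefore called by their labels throughout, and every direction is labelled knockdown minus labelled control. Placed by the constants it carries, TFAP2C had 14.7 and 7.78 FPKM in labelled knockdowns 1 and 2 and 0.448 and 3.11 FPKM in labelled controls 1 and 2, a difference of 2.27 (SE 0.57) that did not pass either (limma, Benjamini-Hochberg adjusted p = 0.0745). The files do not tell whether this row or the labels of all other rows were exchanged, and in the second case every direction below, those of AEBP2 and EED included, would turn round. The 54 values of PRC2 rows above 0.05 FPKM all carried the constant of their own library, within a relative deviation of 5.14e-06.

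The 13 genes encoded by the mitochondrial genome held 39.9% and 26.9% of all transcripts in labelled knockdowns 1 and 2, against 18.5% and 24.1% in labelled controls 1 and 2. All 14 oocyte and early embryo markers were above 0, and their summed level was 2044 and 2492 FPKM in the labelled knockdowns, against 5127 and 5009 FPKM in the labelled controls. Of 21 cumulus and granulosa markers, the 17 with a row had a summed level of 28.8 and 21.7 FPKM in the labelled knockdowns, against 22.8 and 16.1 FPKM in the labelled controls, with AMH and PTGS2 at 0 throughout. For the 6 blood cell markers the summed level was 1.60 and 2.23 FPKM in the labelled knockdowns, against 1.59 and 3.40 FPKM in the labelled controls. The 3 of 6 sperm markers with a row summed to at most 0.584 FPKM. The part of these differences in the results below was not tested, except where a value without the mitochondrial genes is given.

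In the labelled knockdowns the core subunit EED and the PRC2.2 subunit AEBP2 were higher, and no PRC2 gene was lower past the threshold. AEBP2 averaged 16.2 ± 5.62 FPKM in labelled knockdowns and 0.233 ± 0.0559 FPKM in labelled controls (SD, n = 2 each). EED averaged 10.4 ± 5.83 FPKM in labelled knockdowns and 0.968 ± 0.450 FPKM in labelled controls. The catalytic subunits EZH1 and EZH2 had lower values in labelled knockdowns, without passing the test. Called higher were 1 of the 6 core genes and 1 of the 4 accessory genes, where 5.11% of all 9850 tested genes were. With 1 gene in each, these counts do not compare the classes.

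All 10 genes reached the filter, an average of 1 FPKM across libraries, and were tested. EED and AEBP2 averaged under 1 FPKM in the labelled controls, so they were tested because of their labelled knockdown values, and EZH2 because of its labelled control values. Of the 10, 2 were called higher, where 5.11% of the 9850 genes tested were. None was called lower, where 1.46% of all tested genes were (limma, Benjamini-Hochberg adjusted p under 0.05). At an unadjusted p under 0.05 limma had 3 higher, with SUZ12, and 2 lower, EZH1 and PHF19, where 14% and 13.9% of all tested genes were higher and lower. The groups did not overlap for 3 genes higher and 6 genes lower in the labelled knockdowns, where 24.7% and 35.8% of all tested genes were so. The median fold change of the 10 genes was -0.31 on the log2(FPKM + 1) scale, and that of all tested genes -0.13. The all-gene median was -0.0099 after median-ratio scaling, which by design brings it near 0. With TPM (which sums to the same total in every library) it was -0.37. That median is over 11547 genes, as the filter of 1 was applied to TPM. A small difference thus depends on the scaling used.

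**Figure D1:**
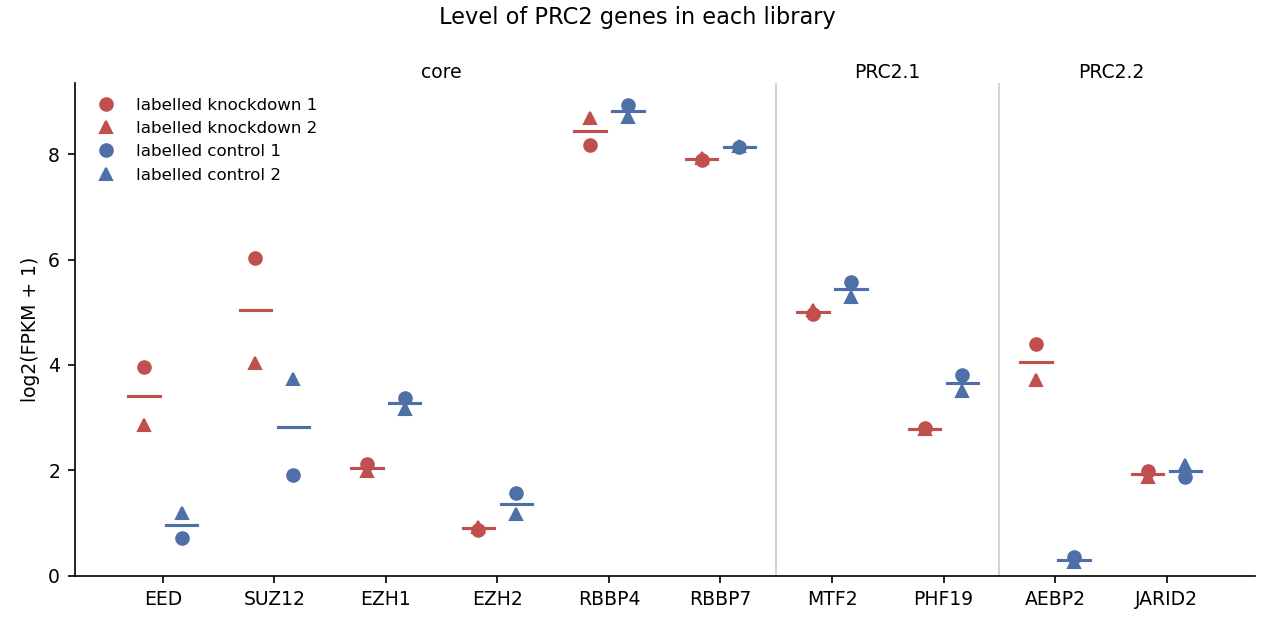
Level of each PRC2 gene in each library, as log2(FPKM + 1), with labelled knockdowns in red to the left and labelled controls in blue to the right; circles are replicate 1, triangles replicate 2, and bars the mean of the 2 libraries. AEBP2 and EED lie well above their labelled controls, SUZ12 spreads widely in both groups, and RBBP4 and RBBP7 are the highest in every library.

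The levels of the members spanned a wide range. RBBP4 summed to 1605 FPKM over the 4 libraries and EZH2 to 4.94 FPKM. In labelled knockdowns the order of mean levels was RBBP4, RBBP7, SUZ12, MTF2, AEBP2, EED, PHF19, EZH1, JARID2 and EZH2. Library values overlapped there between SUZ12 and each of MTF2 and AEBP2, between AEBP2 and EED, and between EZH1 and JARID2, so the order of these neighbours is within their spread. In labelled controls the order was RBBP4, RBBP7, MTF2, PHF19, EZH1, SUZ12, JARID2, EZH2, EED and AEBP2. SUZ12 overlapped PHF19, EZH1 and JARID2 there, and EZH2 overlapped EED. Among the 9850 tested genes EED lay at percentiles 69.5 and 50.6 of level in labelled knockdowns 1 and 2, against 7.44 and 12.6 in labelled controls 1 and 2. AEBP2 lay at percentiles 75.5 and 65.3 in the labelled knockdowns, against 4.59 and 1.85 in the labelled controls.

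EED (gene ID 100521029, chromosome 9, 20123077 to 20158747, Sscrofa11.1) is the subunit that holds the enzyme active on chromatin that already carries the mark. It stood at 14.6 and 6.31 FPKM in labelled knockdowns 1 and 2, against 0.650 and 1.29 FPKM in labelled controls 1 and 2. Both labelled knockdowns were above both labelled controls, and the libraries within a group differed by 2.31 times and 1.98 times. The fold change was 2.46 on the log2(FPKM + 1) scale (SE 0.44, 95% confidence interval 1.38 to 3.53, limma with Benjamini-Hochberg adjusted p = 0.0365). The value rests on 1 transcript row of 7 RefSeq transcripts, with a mean read depth per base of 88.3 and 55.7 in labelled knockdowns and 4.35 and 9.04 in labelled controls. The call was lost on leaving out each of labelled control 1 (fold change 2.22, limma with Benjamini-Hochberg adjusted p = 0.115), of labelled knockdown 1 (1.91, adjusted p = 0.186) and of labelled knockdown 2 (3.0, adjusted p = 0.0835). A fit without a library takes the lone one left in its group to vary like the other group, and without either labelled knockdown none of the 9850 genes was called. Before adjustment limma then had p under 0.05 for 978 genes with higher and 811 with lower values on leaving out labelled knockdown 1, and for 1413 and 1261 on leaving out labelled knockdown 2. With FPKM scaled to the sum of genes outside the mitochondrial genome EED differed by 2.43 (limma, Benjamini-Hochberg adjusted p = 0.0401).

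SUZ12 (gene ID 100294712, chromosome 12, 42983597 to 43032671), the scaffold on which the accessory subunits compete for binding, had 64.7 and 15.5 FPKM in labelled knockdowns 1 and 2, against 2.74 and 12.2 FPKM in labelled controls 1 and 2. The groups did not overlap, but labelled knockdown 2 and labelled control 2 were close to each other and labelled knockdown 1 stood apart. The 2 labelled knockdowns differed by 4.17 times and the 2 labelled controls by 4.46 times. The fold change was 2.23 (SE 0.83, 95% confidence interval 0.19 to 4.27) and did not pass the threshold (limma, Benjamini-Hochberg adjusted p = 0.153). Without labelled control 1 it was 1.32, without labelled control 2 3.14, without labelled knockdown 1 1.23 and without labelled knockdown 2 3.22. A difference of the size seen for EED is therefore inside its interval.

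EZH1 (gene ID 100518394, chromosome 12, 20107744 to 20139764), the catalytic paralog typical of cells that do not divide, had 3.35 and 2.95 FPKM in labelled knockdowns 1 and 2, against 9.40 and 7.97 FPKM in labelled controls 1 and 2. Both labelled knockdowns were below both labelled controls, with replicates within 1.18 times of each other. The fold change was -1.22 (SE 0.28, 95% confidence interval -1.90 to -0.54), and it missed the threshold (limma, Benjamini-Hochberg adjusted p = 0.0612). No alternative brought it past, and the nearest was TPM, with -1.57 and an adjusted p = 0.0509 (limma, Benjamini-Hochberg; range over the alternatives 0.0509 to 0.263).

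EZH2 (gene ID 100625497, chromosome 9, 109384976 to 109450943), the main catalytic subunit of dividing cells, was the member with the lowest level in labelled knockdowns. It had 0.831 and 0.900 FPKM in labelled knockdowns 1 and 2, against 1.95 and 1.26 FPKM in labelled controls 1 and 2. The labelled knockdowns were lower without overlap, and the fold change of -0.47 (SE 0.29, 95% confidence interval -1.19 to 0.25) did not pass (limma, Benjamini-Hochberg adjusted p = 0.342). EZH1 was above EZH2 in every library, by 4.03 and 3.28 times in the labelled knockdowns and by 4.82 and 6.33 times in the labelled controls. EZH2 has 4 rows for 12 RefSeq transcripts and EZH1 has 1 row for 1 transcript. The level of EZH2 may therefore be incomplete, and these ratios compare only the listed rows. Together the 2 catalytic genes summed to 4.18 and 3.85 FPKM in labelled knockdowns, against 11.3 and 9.23 FPKM in labelled controls.

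The transcript rows of EZH2 did not match between groups. In the labelled knockdowns its whole level lay on the row XM_021102120.1, at 0.831 and 0.900 FPKM, and that row was listed at 0 in both labelled controls. In the labelled controls it lay on the row XM_021102117.1, at 1.95 and 1.26 FPKM, which was listed at 0 in both labelled knockdowns. The other 2 EZH2 rows were at 0 in all 4 libraries. Read depth per base was 5.05 and 7.95 on the first row in the labelled knockdowns, against 13.0 and 8.85 on the second row in the labelled controls. Of 2874 tested genes with at least 2 rows above 0, 134 (4.66%) had a different leading row in the 2 groups, and in 26 (0.905%) that row was also the sole one above 0 in each library. EZH2 was the 1 gene of the 5 members with such rows that did either. Neither EZH2 row reached a mean of 1 FPKM, so they were not tested, and how reads were assigned among rows is not given in the sources used here.

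**Figure D2:**
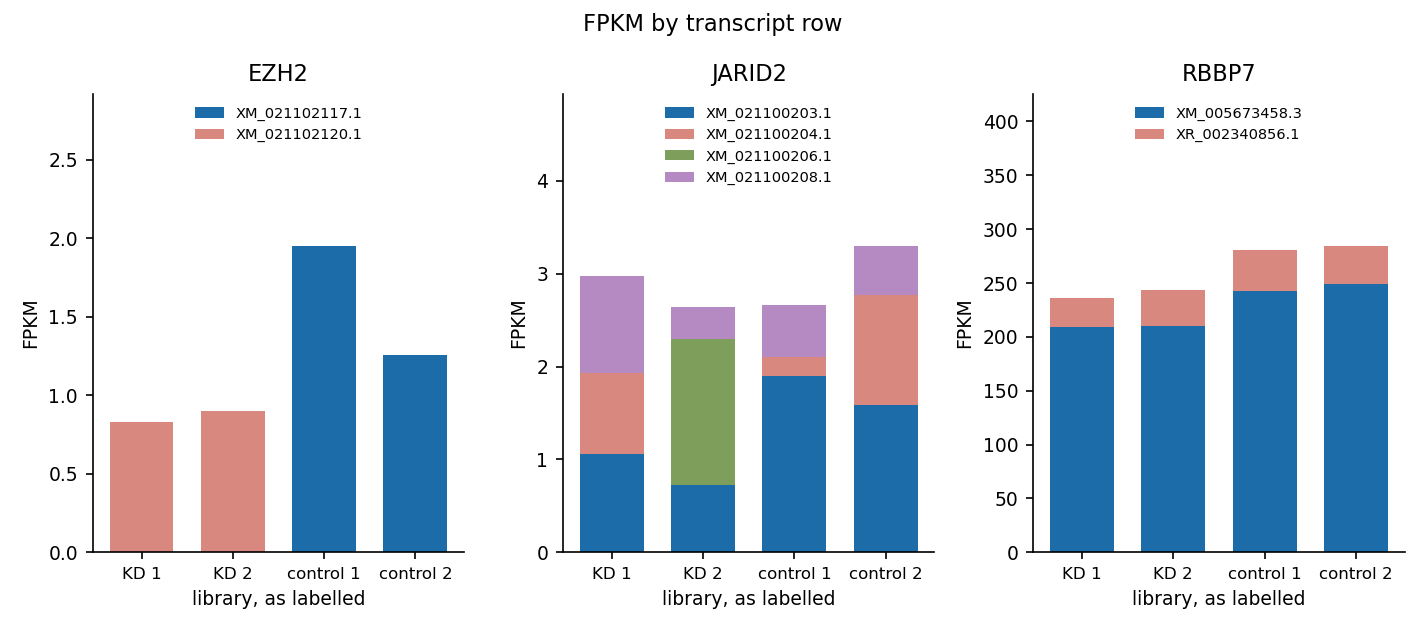
FPKM of each transcript row of EZH2, JARID2 and RBBP7, stacked, in the 2 labelled knockdowns (KD) and the 2 labelled controls; rows at 0 in all libraries are left out. EZH2 lies on 1 row in the labelled knockdowns and on another in the labelled controls. JARID2 is spread over 4 rows across the libraries, with fewer in each library. RBBP7 keeps 86.3% to 88.6% on the same row.

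RBBP4 (gene ID 100620677, chromosome 6, 88987092 to 89006815) and RBBP7 (gene ID 100519001, chromosome X, 13293278 to 13317074) were the highest members. RBBP4 had 287 and 414 FPKM in labelled knockdowns 1 and 2, against 486 and 418 FPKM in labelled controls 1 and 2, so labelled knockdown 2 was next to labelled control 2. Its fold change was -0.39 (95% confidence interval -1.13 to 0.36, limma with Benjamini-Hochberg adjusted p = 0.440). RBBP7 had 236 and 244 FPKM in labelled knockdowns, against 281 and 284 FPKM in labelled controls, with the least spread within the labelled controls of all members. The fold change was -0.23 (95% confidence interval -0.86 to 0.39, limma with Benjamini-Hochberg adjusted p = 0.581), so neither a fall nor a small rise is outside the interval. This interval draws on the spread of other genes and is wider than the values of RBBP7 alone would give. RBBP7 lay mainly on 1 coding row, with 11.4% to 13.7% of its level on a non-coding transcript row in the 4 libraries. RBBP4 and RBBP7 together made up 78.5% and 89.4% of the summed level of the 10 genes in labelled knockdowns 1 and 2, against 90.8% and 90.4% in labelled controls 1 and 2.

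Of the PRC2.2 subunits, AEBP2 (gene ID 100522805, chromosome 5, 53617362 to 53691487), a zinc finger protein that stabilises the complex, showed the largest difference of the 10 genes. It had 20.1 and 12.2 FPKM in labelled knockdowns 1 and 2, against 0.272 and 0.193 FPKM in labelled controls 1 and 2. Both labelled knockdowns were far above both labelled controls, where its mean read depth per base was 122 and 108 in the labelled knockdowns and 1.82 and 1.36 in the labelled controls. The mean was 69.4 times higher in labelled knockdowns, a ratio that rests on labelled control values near 0 and is therefore unstable. The fold change on the log2(FPKM + 1) scale, which understates changes of low genes, was 3.76 (SE 0.34, 95% confidence interval 2.94 to 4.59). It passed the threshold (limma, Benjamini-Hochberg adjusted p = 0.00811) and had the 42nd smallest p-value of the 9850 genes. The call was lost on leaving out labelled knockdown 1 (fold change 3.42, limma with Benjamini-Hochberg adjusted p = 0.127) or labelled knockdown 2 (4.10, adjusted p = 0.0709). Fitted row by row, none of the 10 member rows that could be tested was called, where 0.926% of 11230 rows were, and AEBP2 had the smallest adjusted p among them, 0.0525 (limma, Benjamini-Hochberg; 2 member rows higher and 2 lower at an unadjusted p under 0.05, where 10.2% and 9.88% of all rows were). Scaled to genes outside the mitochondrial genome, AEBP2 differed by 3.74 (limma, Benjamini-Hochberg adjusted p = 0.00844).

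JARID2 (gene ID 100524569, chromosome 7, 11358243 to 11601715), which recruits PRC2 and is itself a substrate of it, had 2.98 and 2.64 FPKM in labelled knockdowns 1 and 2, against 2.67 and 3.29 FPKM in labelled controls 1 and 2. It was the 1 member whose groups overlapped. The fold change was -0.061 (95% confidence interval -0.75 to 0.63, limma with Benjamini-Hochberg adjusted p = 0.908), and its sign turned with median-ratio scaling (0.054), without labelled control 2 (0.053) and without labelled knockdown 2 (0.0035). Its level was divided among 4 rows in no fixed way. The row XM_021100203.1 held 35.4% and 27.3% in labelled knockdowns 1 and 2, against 71.4% and 48.0% in labelled controls 1 and 2. The row XM_021100206.1 held 59.6% in labelled knockdown 2 and was listed at 0 in the 3 other libraries. AEBP2 stood above JARID2 by 6.77 and 4.62 times in labelled knockdowns, whereas it stood at 0.102 and 0.0587 times the level of JARID2 in labelled controls.

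The PRC2.1 subunits had lower values in labelled knockdowns. MTF2 (gene ID 100156808, chromosome 4, 124051586 to 124124440) had 30.4 and 32.0 FPKM in labelled knockdowns 1 and 2, against 46.6 and 38.1 FPKM in labelled controls 1 and 2. The groups did not overlap, and the fold change was -0.42 (95% confidence interval -1.09 to 0.24, limma with Benjamini-Hochberg adjusted p = 0.351). PHF19 (gene ID 100156643, chromosome 1, 260899462 to 260919776), which also binds the H3K36 methyl mark, had 5.94 and 5.86 FPKM in labelled knockdowns, against 13.0 and 10.4 FPKM in labelled controls. Its labelled knockdowns agreed within 1.01 times of each other and lay below both labelled controls. The fold change of -0.87 (SE 0.28, 95% confidence interval -1.56 to -0.19) did not pass the threshold (limma, Benjamini-Hochberg adjusted p = 0.117). MTF2 stood above PHF19 by 5.12 and 5.46 times in labelled knockdowns, against 3.59 and 3.67 times in labelled controls.

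**Figure D3:**
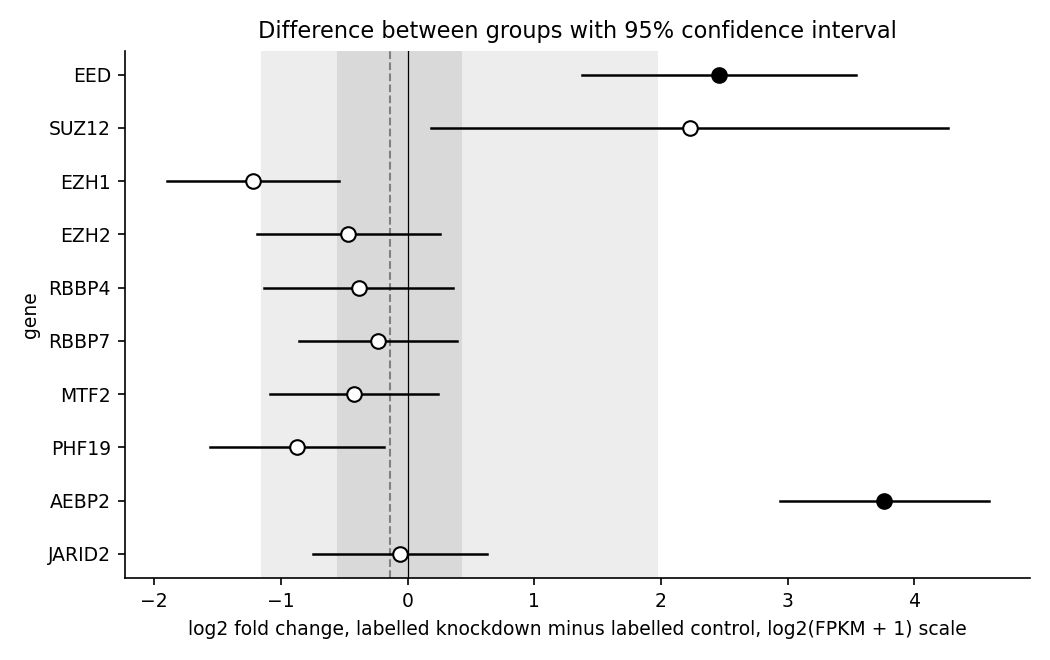
Fold change of each PRC2 gene, labelled knockdown minus labelled control, on the log2(FPKM + 1) scale with its 95% confidence interval from limma; filled points passed the threshold. The bands hold the middle 90% (light) and 50% (dark) of all 9850 tested genes and the dashed line is their median, -0.13; only EED and AEBP2 are filled, and SUZ12 has the widest interval.

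Set against each other as classes, core and accessory subunits differed little between groups. The 6 core genes summed to 607 and 683 FPKM in labelled knockdowns 1 and 2, against 781 and 725 FPKM in labelled controls 1 and 2. The 4 accessory genes summed to 59.5 and 52.7 FPKM in labelled knockdowns, against 62.5 and 52.0 FPKM in labelled controls. Core over accessory was 10.2 and 13.0 in labelled knockdowns and 12.5 and 13.9 in labelled controls. The mean log2 ratio was thus lower by 0.20 in labelled knockdowns (a difference of -0.20), against a pooled SD within groups of 0.19, so it was about as large as the spread between libraries.

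The core sum is mostly RBBP4 and RBBP7, which are shared with other complexes. The 4 other core genes summed to 83.5 and 25.7 FPKM in labelled knockdowns, against 14.7 and 22.7 FPKM in labelled controls. Most of the value in labelled knockdown 1 was SUZ12, and labelled knockdown 2 was close to labelled control 2. With these 4 as the core, a choice made after the values were seen, the log2 ratio of core to accessory was higher in labelled knockdowns by 1.36, with a pooled SD within groups of 0.88. Without labelled knockdowns 1 and 2 in turn it was 0.60 and 2.13, and without labelled controls 1 and 2 in turn 0.92 and 1.81. Of the accessory genes AEBP2 alone was called, so the sums by form are given as values. MTF2 and PHF19 summed to 36.4 and 37.8 FPKM in labelled knockdowns, against 59.6 and 48.5 FPKM in labelled controls. AEBP2 and JARID2 summed to 23.1 and 14.8 FPKM in labelled knockdowns, against 2.94 and 3.49 FPKM in labelled controls. PRC2.2 over PRC2.1 accessory level was 0.635 and 0.392 in labelled knockdowns and 0.0493 and 0.0718 in labelled controls, and the difference lay mainly in AEBP2. Within the core, EED stood at 3.48 and 1.64 times the summed level of EZH1 and EZH2 in labelled knockdowns, against 0.0573 and 0.139 times in labelled controls. These sums and ratios are descriptions and were not tested.

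**Figure D4:**
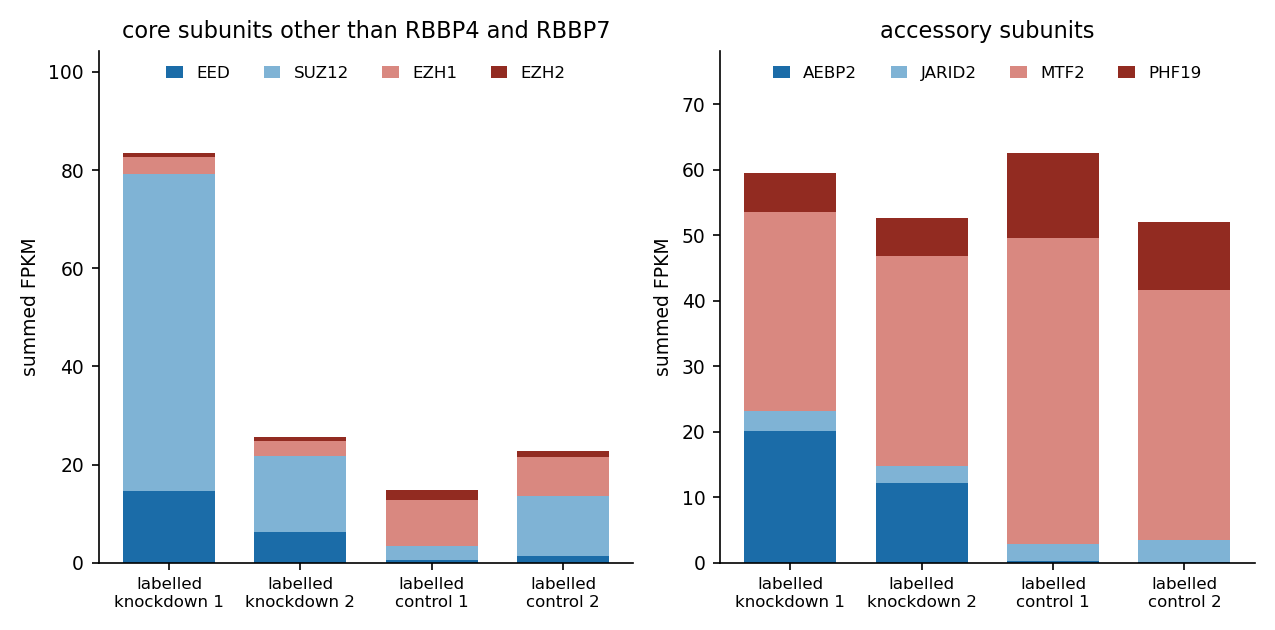
Summed FPKM per library, stacked by gene, of the 4 core genes other than RBBP4 and RBBP7 (left) and of the 4 accessory genes (right), labelled knockdowns before labelled controls. SUZ12 fills most of labelled knockdown 1 on the left, and on the right AEBP2 is visible in the labelled knockdowns and not in the labelled controls while the totals stay between 52.0 and 62.5 FPKM.

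For each called member the 3 tested genes closest in level over the 4 libraries were looked up, by Euclidean distance of log2(FPKM + 1). For EED these were FUT9, a fucosyltransferase, at a distance of 0.244, ORAOV1 at 0.344 and the ribosomal protein gene RPL27 at 0.407. For AEBP2 they were DENR, a translation reinitiation factor, at 0.369, the ribosomal protein gene RPL21 at 0.643 and PDXK, pyridoxal kinase, at 0.652. DENR had 20.4 and 10.4 FPKM in labelled knockdowns 1 and 2, against 0.138 and 0.423 FPKM in labelled controls 1 and 2. All 6 neighbours were called higher in labelled knockdowns. They were picked by closeness to a called gene in the same values, so these calls follow from the choice and add no support. FUT9, ORAOV1, DENR, RPL21 and PDXK averaged under 1 FPKM in the labelled controls, so they were tested because of their labelled knockdown values. Likeness over 4 libraries is a description of levels.

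The other genes around H3K27 methylation were taken from fixed lists. Of 6 further PRC2 cofactors only LCORL was tested, with 7.99 and 7.76 FPKM in labelled knockdowns and 9.82 and 11.9 FPKM in labelled controls, and it was not called. PHF1, the third Polycomb-like gene, had at most 0.0700 FPKM in any library. Of 5 genes that remove the methyl group from H3K27 or acetylate it, 3 were tested and limma called none. Of these 1 was higher and 0 lower at an unadjusted p under 0.05, where 14% and 13.9% of all tested genes were (limma). KDM6A, an H3K27 demethylase, had 2.73 and 1.5 FPKM in labelled knockdowns and 3.53 and 1.99 FPKM in labelled controls. The acetyltransferase CREBBP had 2.53 and 1.40 FPKM in labelled knockdowns and 2.81 and 4.30 FPKM in labelled controls. EP300, the other acetyltransferase, had 3.48 and 2.24 FPKM in labelled knockdowns, against 0.579 and 1.12 FPKM in labelled controls. Its fold change of 1.06 did not pass (limma, Benjamini-Hochberg adjusted p = 0.111). EP300 averaged under 1 FPKM in labelled controls, so it was tested because of its labelled knockdown values.

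Of 26 PRC1 genes 12 were tested, and limma called none in either direction (4 higher and 0 lower at an unadjusted p under 0.05, against the 14% and 13.9% of all tested genes), with a median fold change of 0.082. RNF2, the ubiquitin ligase of PRC1, had 84.9 and 115 FPKM in labelled knockdowns, against 119 and 92.5 FPKM in labelled controls, and the groups overlapped. SCML2 had 23.6 and 36.5 FPKM in labelled knockdowns and 33.8 and 43.1 FPKM in labelled controls. The 4 genes under an unadjusted p of 0.05 were RYBP, PCGF1, BMI1 and PCGF6, with fold changes of 1.52, 1.55, 1.03 and 0.83. PCGF1 and BMI1 averaged under 1 FPKM in labelled controls, so they were tested because of their labelled knockdown values. PCGF1 had 7.54 and 1.67 FPKM in labelled knockdowns, against 0.165 and 1.28 FPKM in labelled controls (SE 0.63). Its labelled knockdown 2 lay close to labelled control 2. RYBP, a subunit of the PRC1 forms without CBX proteins, came nearest to the threshold, with 15.8 and 27.1 FPKM in labelled knockdowns, against 7.51 and 5.77 FPKM in labelled controls (limma, Benjamini-Hochberg adjusted p = 0.0642). Of 8 genes of PR-DUB, which removes the PRC1 ubiquitin mark, 5 were tested and limma called none (0 higher and 1 lower unadjusted). ASXL3, the highest of them by the mean of all 4 libraries though not in labelled knockdowns, had 0.691 and 1.87 FPKM in labelled knockdowns and 2.46 and 2.67 FPKM in labelled controls.

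Of 23 genes of other complexes that hold RBBP4 or RBBP7, 15 were tested. At an unadjusted p under 0.05 limma had 3 higher and 3 lower, where 14% and 13.9% of all tested genes were. After adjustment 1 was called higher and none lower, where 5.11% and 1.46% of all tested genes were (limma). The called gene was HDAC2, a histone deacetylase, with 47.1 and 59.7 FPKM in labelled knockdowns, against 19.7 and 16.8 FPKM in labelled controls (fold change 1.49, SE 0.28, limma with Benjamini-Hochberg adjusted p = 0.0422). SIN3A, the highest of this list, had 119 and 131 FPKM in labelled knockdowns and 226 and 298 FPKM in labelled controls, a fold change of -1.05 that did not pass (limma, Benjamini-Hochberg adjusted p = 0.0844). Of 5 methyltransferases of H3K36, a mark that limits PRC2, 4 were tested and SETD2 was called higher, where 5.11% of all tested genes were. SETD2, which places the trimethyl mark on transcribed genes, had 14.2 and 9.31 FPKM in labelled knockdowns, against 0.392 and 1.06 FPKM in labelled controls (fold change 2.89, SE 0.36, limma with Benjamini-Hochberg adjusted p = 0.0161). As it averaged under 1 FPKM in labelled controls, SETD2 was tested because of its labelled knockdown values. NSD1 had 15.3 and 9.35 FPKM in labelled knockdowns and 4.85 and 10.6 FPKM in labelled controls, and the groups overlapped.

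Among the marker lists, 4 of 14 oocyte and early embryo genes were lower past the threshold and none higher. Of all tested genes 1.46% were called lower and 5.11% higher (limma). Before adjustment 0 of the 14 were higher and 7 lower at p under 0.05, where 14% and 13.9% of all tested genes were (limma). The 4 called genes were WEE2, MOS, H1FOO and KPNA7, at fold changes of -2.13, -1.89, -1.96 and -1.57. Of 7 tested cumulus and granulosa markers only NR5A2 was called, higher in labelled knockdowns with 6.47 and 4.68 FPKM, against 0 and 0.234 FPKM in labelled controls. It too was tested because of its labelled knockdown values, and it is also expressed in early embryos of the mouse. Of the 7, 3 had a positive and 4 a negative fold change. INHBA and FST, the highest of the 7 by the mean of all 4 libraries, were not called. INHBA had 5.80 and 4.29 FPKM in labelled knockdowns, against 7.87 and 6.28 FPKM in labelled controls. FST had 5.48 and 2.96 FPKM in labelled knockdowns, against 9.83 and 3.40 FPKM in labelled controls, and the groups overlapped. Of the blood cell markers only CD3E was tested and it was not called, and no sperm marker was tested. The 7 calls among these lists (HDAC2, SETD2, WEE2, MOS, H1FOO, KPNA7 and NR5A2) were lost on leaving out labelled knockdown 1, labelled knockdown 2 or labelled control 1, and those of HDAC2 and KPNA7 also on leaving out labelled control 2 (limma, Benjamini-Hochberg adjusted p = 0.0525 to 0.184 where lost).

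**Figure D5:**
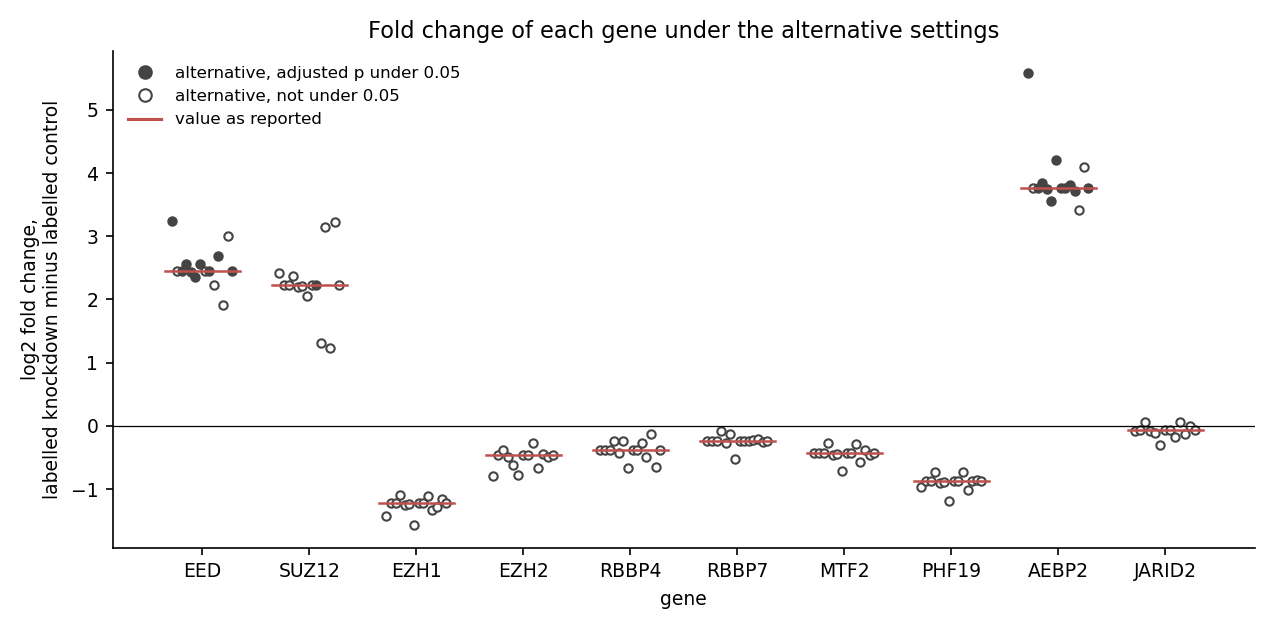
Fold change of each PRC2 gene (labelled knockdown minus labelled control, log2 scale) under each alternative setting that gave it a value. Points are filled where the adjusted p was under 0.05, and the red line is the reported value. EED and SUZ12 lie above 0 throughout and AEBP2 between 3.42 and 5.58, EZH1 stays between -1.57 and -1.09, and JARID2 lies on both sides of 0.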

How the data were processed

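Sequencing was of RNA from 4 libraries of 4-cell embryos, 2 per group. Libraries were made with a SMARTer mRNA kit, per the labels' protocols; its cDNA amplification makes low levels noisy. StringTie 2.1.7, Bowtie2 2.3.5, cutadapt and the build Sscrofa11.1 are named in the submitters' processing notes, but their roles, the annotation and any filter are not given in the sources used. The authors deposited, per transcript and library, coverage (mean read depth per base, not scaled for depth), FPKM (scaled to transcript length and library size) and TPM (scaled to a fixed sum). If FPKM was made from coverage, as StringTie does, coverage over FPKM is the aligned gigabases, 6.07 and 8.83 in labelled knockdowns and 6.69 and 7.03 in labelled controls. The table gives no counts, so the test planned for FPKM was used.

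Rows were named from RefSeq genes of Sscrofa11.1, of which 32816 by accession, and FPKM was summed per gene. The name column and the accession found the same 23 rows of PRC2 genes. The filter kept genes averaging at least 1 FPKM. Log2(FPKM + 1) was fitted on group alone with limma 3.58.1 under R 4.3.3 (trended eBayes), two-sided, with Benjamini-Hochberg adjustment over all 9850 genes and a threshold of 0.05. The fit has 2 residual degrees of freedom per gene, to which the eBayes step adds from the other genes. It was also run on simulated data with equal, independent noise for every gene, which leaves unequal spreads and effects on a whole library uncovered. Named were all 10 members and the 3 genes nearest to each called member. Of each other list the called genes and the 1 or 2 highest tested genes were named. EZH1, PHF19 and SUZ12 at unadjusted p are members. AMH and PTGS2 were named for their values of 0. PHF1, EP300, RYBP, PCGF1, BMI1 and PCGF6 were added after their values were seen. The members and lists were chosen with earlier results of these data known. Alternatives were another pseudocount, filter, scaling and unit, a replicate block, no trend, transcript rows and leaving out each library. An exact 0 may be a failed estimate, so such rows are said to be listed at 0.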

Additional observations from a re-analysis of the deposited data

How the results depend on the processing

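Of the 10 fold changes, 9 kept their sign under every alternative on gene sums that gave them a value. There were 14 such alternatives, and 13 for EZH2 and JARID2. These had no value at a minimum mean of 5 FPKM, where 8 members were tested. JARID2 turned to 0.054 after median-ratio scaling. On leaving out 1 library it lay between -0.17 and 0.053, positive without labelled control 2 (0.053) and labelled knockdown 2 (0.0035). The count of 503 genes called higher and 144 lower (limma, Benjamini-Hochberg adjusted p under 0.05) was 312 and 62 with a pseudocount of 0.1, 320 and 124 with a minimum mean of 5 FPKM, 540 and 78 after median-ratio scaling, and 70 and 34 on transcript rows. With no filter limma called 0 and 0 (1930 and 1766 at an unadjusted p under 0.05). Leaving out 1 library gave 0 to 479 higher and 0 to 47 lower; both 0 counts were without a labelled knockdown (978 and 811 unadjusted without labelled knockdown 1, 1413 and 1261 without labelled knockdown 2), and without labelled control 1 the counts were 141 and 11. The 2 PRC2 genes called higher became 0 with no filter and 0 on transcript rows (2 higher and 2 lower unadjusted in each, limma), and 0 to 2 without 1 library (2 higher and 1 lower unadjusted without labelled knockdown 1, 3 and 1 without labelled knockdown 2). None was called lower by limma under any alternative, with 1 or 2 lower at an unadjusted p under 0.05. With no filter AEBP2 and EED had Benjamini-Hochberg adjusted p = 0.116 and 0.175 (limma), with 22933 genes tested.

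The titles number libraries 1 and 2 in both groups, and nothing says that a number marks shared embryos. The deviations of same-numbered libraries correlated at r = -0.143 across genes. With a replicate block limma called 125 higher and 8 lower genes and 1 PRC2 gene (EED had an adjusted p = 0.0798, AEBP2 0.0322). With the numbers crossed in the block, chosen after this correlation was seen, the counts were 611 and 119, and 3 PRC2 genes. The cause of these changes was not tested, beyond the fewer libraries and more genes tested where named.

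The core minus accessory difference of -0.20 lay between -0.37 and -0.024 without 1 library, was the same with TPM, which cancels in the ratio, and was 1.36 with the core restricted to EED, SUZ12, EZH1 and EZH2. Settings of the fit do not enter that ratio and gave no value for it. Low depth limits EZH2, JARID2 and the labelled control values of AEBP2 and EED.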
